A study of Bos grunniens with 18 samples.

Results

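FTO, ALKBH5 and ALKBH3, the demethylases usually called m6A erasers, were followed through a map of N6-methyladenosine (m6A) along the yak epididymis. They were chosen by gene symbol, and each matched 1 of the 18467 gene rows of the deposited expression table. The question was whether the erasers' own transcripts carry m6A peaks, and whether those peaks differ along the duct.

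m6A is a methyl group on adenosines of messenger RNA. A writer complex places it, reader proteins bind it, and erasers remove it by oxidation with iron and 2-oxoglutarate. FTO was the earliest eraser described and also acts on the methylated base beside the messenger RNA cap. ALKBH5 removes m6A from nuclear messenger RNA, and mice without it have impaired sperm formation. ALKBH3 is best known for removing N1-methyladenosine from RNA and alkyl damage from DNA, so its place among m6A erasers is less firm.

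The tissue came from 6 healthy male yaks (Bos grunniens) aged 4 years, with no treatment named, and was cut into the head (caput), body (corpus) and tail (cauda) of the epididymis, the duct in which sperm mature. Each region had 3 libraries of antibody-enriched RNA and 3 of unenriched input RNA, 18 in all, and which animal gave which library is not stated, so libraries of different regions may share an animal. All are whole pieces of duct, so epithelium, muscle, vessels and luminal sperm are mixed, and no marker check of the tissue was made because expression levels were not used. The results rest on 1 list of candidate adenosines per region and on the authors' 3 tables comparing peaks between 2 regions. None of these holds a value for a single library, so the values below carry no error and the depth behind a peak is unknown. The assembly behind the coordinates is not stated, and no sequence of these transcripts was used.

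All 3 eraser transcripts carried at least 1 m6A peak in these tables. Peaks are common: they lay on 7973 genes in corpus over caput, 8070 in cauda over caput and 7939 in cauda over corpus, beside 18467 gene rows. Carrying a peak is therefore not read here as a trait of the erasers. FTO and ALKBH5 were present in each of the 3 comparisons, whereas ALKBH3 was compared only where the cauda was one of the regions. In all there were 11 tabulated values at 6 distinct spans. By the authors' deposited tables, 0 of them reached an adjusted p under 0.05. The peaks nearest to it were those of ALKBH3 and ALKBH5 in the cauda over corpus comparison, both with positive log2 folds, while the FTO values were between -0.082 and 0.079.

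ALKBH3, on the plus strand of chromosome 13 (gene identifier ENSBGRG00000024727), had a single peak from 26516044 to 26536490. The peak covers 245 bases of transcript out of a span of 20447 bases, so it crosses at least 1 intron. Set against the corpus in the authors' deposited table, its cauda log2 fold was 0.54 (fold 1.45, p = 0.0012, adjusted p = 0.062). A positive fold has more signal in the cauda, and 7.80% of the 13917 peaks of that table had a higher log2 fold. Over the caput, the authors' deposited table gives a log2 fold of 0.235 (p = 0.22, adjusted p = 0.66). The corpus over caput table has no row for ALKBH3.

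ALKBH5 lies on the plus strand of chromosome 19 (ENSBGRG00000017200) and had a pair of unspliced peaks separated by 15705 bases. The downstream peak, from 32761309 to 32761508 (200 bases), had a log2 fold of 0.48 for cauda over corpus (fold 1.39, p = 0.0015, adjusted p = 0.069) in the authors' deposited table. For cauda over caput it was 0.30 (p = 0.028, adjusted p = 0.27) and for corpus over caput -0.185 (p = 0.35, adjusted p = 0.79), both in the authors' deposited tables. This peak therefore had its positive values in the comparisons with the cauda on top, and a negative one between the other regions. The 3 comparisons share libraries, so these values are not independent.

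The upstream ALKBH5 peak, from 32745206 to 32745603 (398 bases), had values near 0. Its log2 fold was 0.0099 for corpus over caput (adjusted p = 0.79) and -0.022 for cauda over caput (adjusted p = 0.83) in the authors' deposited tables. It has no row in the cauda over corpus table, although both regions list candidates in it. The peaks of this gene thus had different values in the same comparison, 0.30 downstream and -0.022 upstream for cauda over caput, but the difference between them was not tested.

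FTO, on the minus strand of chromosome 20 (ENSBGRG00000024270), had 2 neighbouring peaks 247 bases apart, both spliced. The upstream one covers 200 bases of transcript between 25831719 and 25972848, a span of 141130 bases, and reaches 25972897 with 249 bases in the cauda over caput table. Its log2 folds in the authors' deposited tables were -0.082 for corpus over caput (adjusted p = 0.99), -0.0010 for cauda over caput (adjusted p = 0.55) and 0.073 for cauda over corpus (adjusted p = 0.75). The downstream one, from 25810301 to 25831471 (398 bases), was tabulated for corpus over caput only, at 0.079 (adjusted p = 0.98, the authors' deposited table). All 4 FTO values lay between the 25th and 75th percentiles of the folds of all peaks in their tables.

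**Figure D1:**
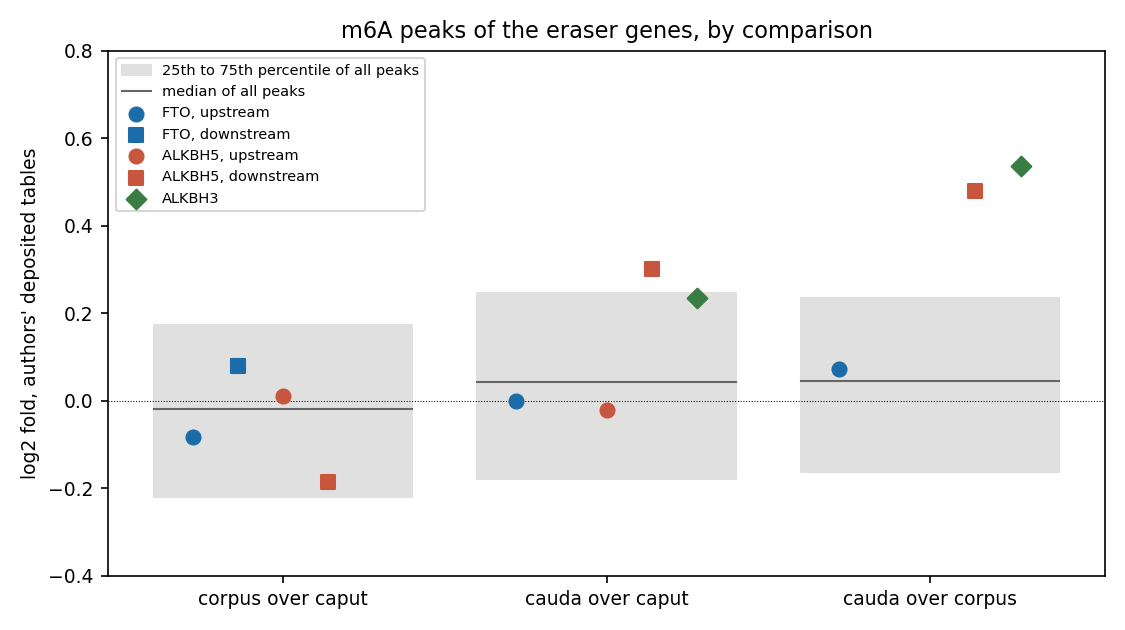
Log2 fold (vertical axis) of each eraser peak in the 3 comparisons (horizontal axis), with the 25th to 75th percentiles of all peaks as a grey band and their median as a line; upstream and downstream are in the direction of transcription, and the tables give no error. The ALKBH3 (0.54) and downstream ALKBH5 (0.48) peaks lie above the band in cauda over corpus, and FTO stays within it in every comparison.

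For the background, 2.98% of the 14061 corpus over caput peaks, 2.27% of the 13826 cauda over caput peaks and 1.96% of the 13917 cauda over corpus peaks met that threshold, in the authors' deposited tables. The erasers had 4, 4 and 3 peaks there, so a count of 0 is near these background shares and is not a result about the erasers. At an unadjusted p under 0.05 the counts were 0 of 4, 1 of 4 and 2 of 3, against 16.4%, 17.2% and 16.4% of all peaks. At an adjusted p under 0.10, 2 of 3 were called in cauda over corpus, against 3.46% of all its peaks. Ranked by p in the authors' deposited cauda over corpus table, ALKBH3 stood 334 and the downstream ALKBH5 peak 358 of 13917. The highest unadjusted p that still passed there was 7.8e-04, so both lay within a factor of 2 of it. The median log2 fold of the 3 eraser peaks was 0.48 in that table and that of all peaks 0.046, but the 3 values span 0.073 to 0.54. ALKBH3 and the downstream ALKBH5 peak had candidates listed in the cauda alone. Unspliced peaks listed in the cauda and not the corpus had a median log2 fold of 0.40 there, and 23.6% had an unadjusted p under 0.05. All peaks are thus not a like background for these 2, and these counts and this median are not a result about the erasers.

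**Figure D2:**
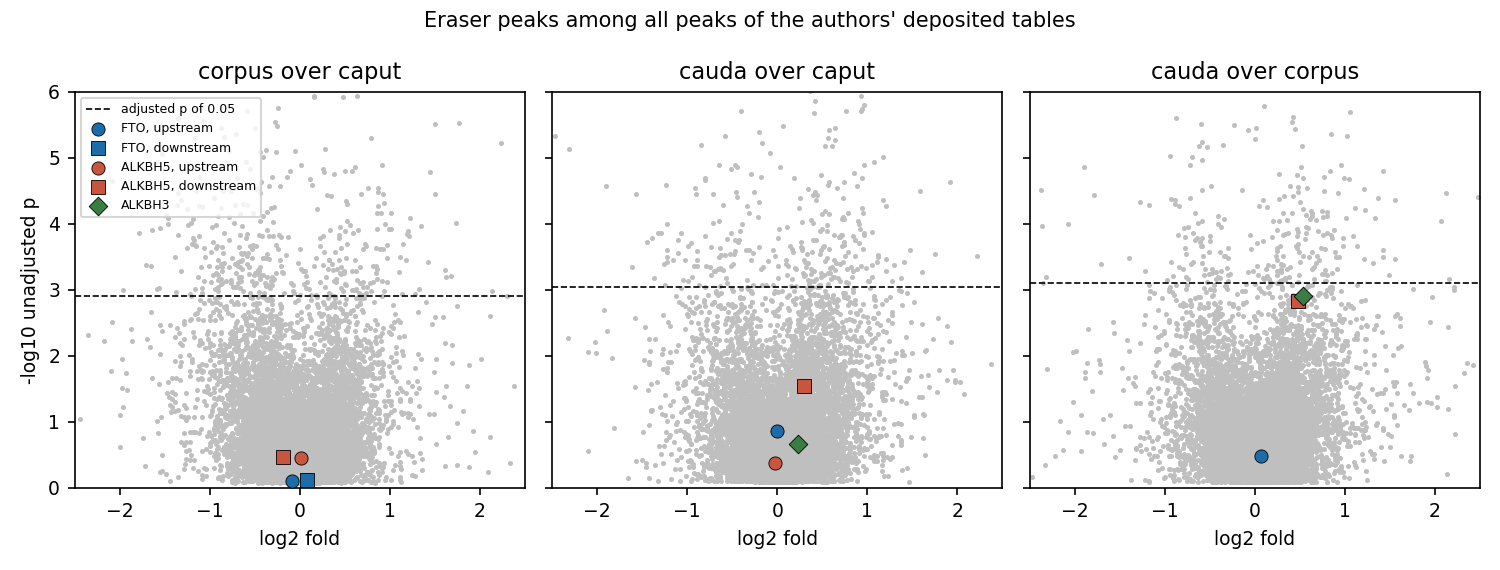
Unadjusted p on a -log10 scale (vertical axis) against log2 fold (horizontal axis) for every peak of each authors' table in grey, with the eraser peaks in colour and the highest p that passed adjustment as a dashed line. No eraser peak is above the line, and ALKBH3 and the downstream ALKBH5 peak come nearest in cauda over corpus; the 56, 48 and 42 peaks beyond the axes are not drawn.

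The p-values of these tables followed the size of the fold only in part. The FTO peak with a log2 fold of -0.0010 had p = 0.14, and the FTO peak with -0.082 had p = 0.78, both in the authors' deposited tables. Among peaks with an absolute log2 fold under 0.01, 18 of 370 (4.86%) in corpus over caput, 27 of 305 (8.85%) in cauda over caput and 25 of 352 (7.10%) in cauda over corpus had an unadjusted p under 0.05, against 16.4%, 17.2% and 16.4% of all peaks. Neither the test behind the p-values nor whether the folds are relative to input RNA is stated. A change in methylation can therefore not be told apart from a change in the amount of transcript, nor fewer cells of a type from less RNA per cell.

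The candidate lists name adenosines within the outer edges of these peaks, introns included. A list names a peak only through its candidate adenosines, each with the authors' prediction score between 0 and 1 and a class: low confidence from a score of 0.557, moderate from 0.584, high from 0.62 and very high from 0.676. Over the 3 regions the erasers had 60 candidate positions, 45 in FTO, 9 in ALKBH3 and 6 in ALKBH5. No position listed in several regions differed between them in its highest score. The score is therefore not read here as how strongly a region was methylated. Of the 60, 15 (25%) were classed as m6A sites, beside 18.7% of all 143390 positions. Without a stretch of 36 FTO positions described below, it was 4 of 24 (16.7%), on the other side of that share.

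ALKBH3 was listed in the cauda alone, with 9 candidates and none in the caput or corpus. They fall in 2 runs, 4 positions from 26534337 to 26534424 and 5 from 26536432 to 26536470. One position of each run was classed, 26534424 with a score of 0.574 (low confidence) and 26536457 with 0.594 (moderate confidence). The other 7 scored from 0.354 to 0.547. As the peak is spliced, which of the 9 lie in the 245 bases it covers is not known. All 9 positions of the span, divided by the 245 covered bases, give 3.67 per 100. The median over 6486 cauda peaks of known length, counted in the same way, was 1.82. For ALKBH3 this is an upper limit, since positions in introns may be among the 9. The cauda listing and the positive cauda folds have the same direction, but both come from the same libraries, so neither is separate support for the other.

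The upstream ALKBH5 peak was listed in all 3 regions with the same 3 candidates. Position 32745294 was classed with a score of 0.56 (low confidence), just over the lowest class, and 32745300 and 32745480 scored 0.402 and 0.436. The listed peak ended at 32745603 in the caput and at 32745553 in the corpus and cauda. The downstream ALKBH5 peak was listed in the cauda alone, with candidates at 32761314 (0.483), 32761347 (0.554) and 32761418 (0.516). None of these was classed, and 32761347 lay just under the lowest class. It was listed with 2 different scores, of which 0.554 was the higher. This downstream peak was nevertheless compared between corpus and caput (log2 fold -0.185), so absence from a list does not show absence of a peak.

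This makes 2 eraser peaks that only the cauda list holds, and they are the 2 with the highest folds of cauda over corpus. Such a listing goes with a positive fold in general. Among 901 unspliced peaks of the cauda over corpus table with candidates listed in the cauda and not the corpus, the median log2 fold was 0.40, 90.3% were positive, 23.6% had an unadjusted p under 0.05 and 3.33% an adjusted one, in the authors' deposited table. The fold of the downstream ALKBH5 peak, which is unspliced, lies somewhat above that median. The ALKBH3 peak is spliced and so is not among these peaks. The listing and the fold are not independent, since both come from the same libraries.

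**Figure D3:**
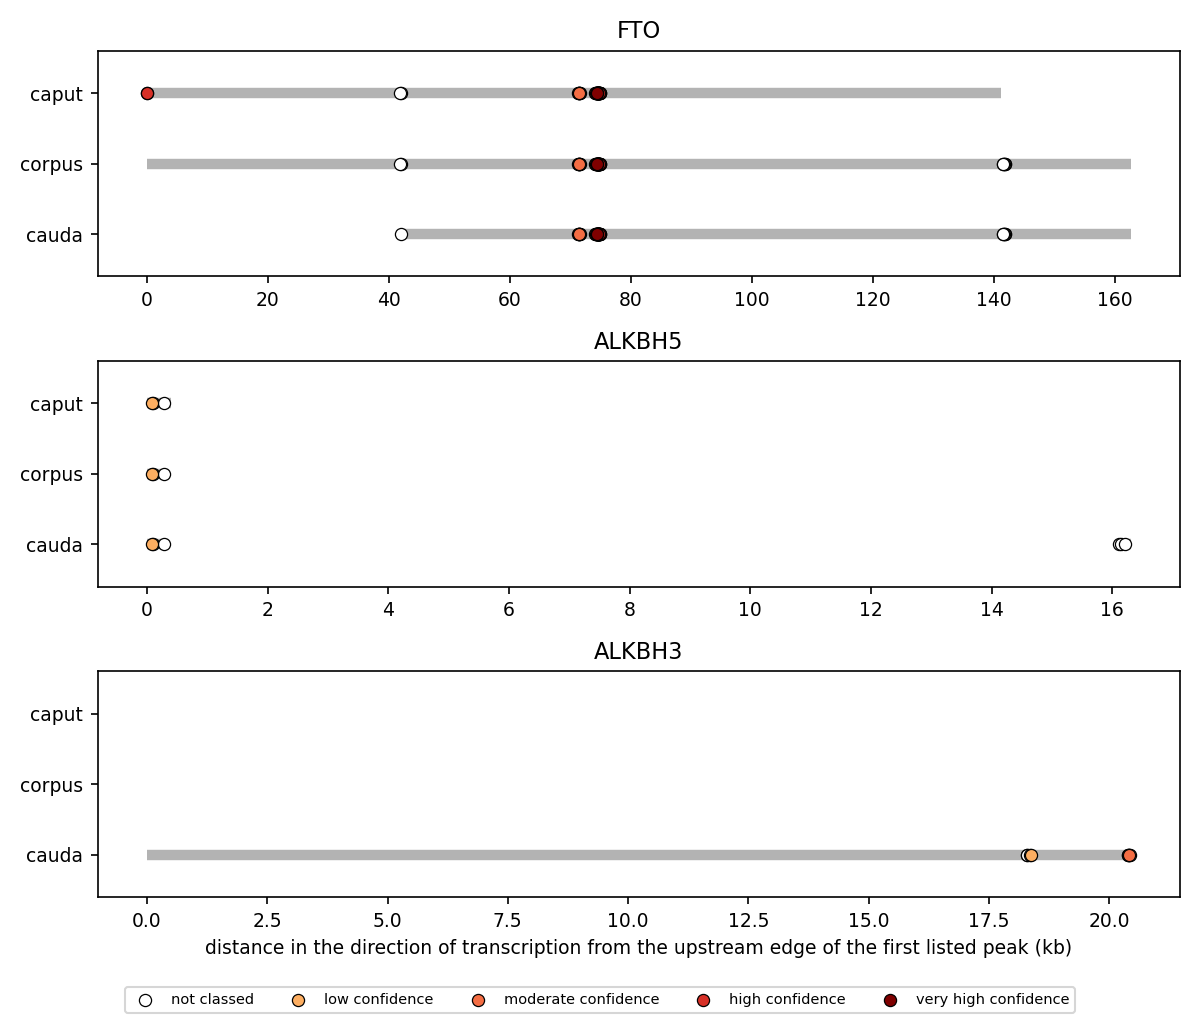
Candidate adenosines (points) and listed peaks (grey bars, introns included) of each eraser gene by region (rows), against distance in kb from the upstream edge of the first listed peak; point colour gives the authors' class. ALKBH3 and the downstream ALKBH5 candidates are listed in the cauda only, and the FTO run is listed in all 3 regions.

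FTO had the most candidates, 40 in the caput, 43 in the corpus and 42 in the cauda, of which 12, 11 and 11 were classed. Of all positions of these regions, 19.1%, 19.3% and 19.1% were classed. Of the 45 FTO positions, 37 were listed in all 3 regions and 12 (26.7%, 95% Wilson interval 16.0 to 41.0, counting error only) were classed. The share over all positions, 18.7%, lies inside that interval. The interval treats neighbouring positions of 1 gene as independent, which they may not be. The listed edges of the upstream peak differed: it began at 25972897 in the caput, 25972848 in the corpus and 25930991 in the cauda, counted along the minus strand. Position 25972869, with a score of 0.622 (high confidence), lay beyond the corpus and cauda edges and was listed in the caput alone. The downstream peak was listed in the corpus and cauda with the same 5 candidates from 25831112 to 25831442, none classed, and not in the caput.

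Most FTO candidates were found in one stretch inside the span of the upstream peak. From 25898006 to 25901606, 36 positions were listed in every region, and 11 of the 12 classed FTO positions were among them. They include the highest score of any eraser position, 0.723 at 25898547 (very high confidence), and high confidence positions at 25898006 (0.635), 25898232 (0.63) and 25898554 (0.645). The 9 other FTO positions held 1 classed site.

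This stretch is larger than the peak it is listed under. It splits into a run of 30 positions over 765 bases and a run of 6 over 215 bases, while the upstream peak covers 200 bases of transcript in the corpus. With 38 candidates that peak had 19.0 per 100 bases, against a median of 1.78 over 6758 corpus peaks of known length, of which 11 had more. No unspliced corpus peak exceeded 6.12 per 100 bases. The 36 positions were each listed once, whereas the FTO candidates at 25930944 and 25931015 were listed 5 times and those of the downstream peak 10 times. Single listing was not limited to the stretch, since FTO positions 25972853 and 25972869 at the caput edge of the peak and all 9 ALKBH3 positions were also listed once. So these 36 lie within the outer edges of the peak, but not all of them can lie in the bases it covers.

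The 2 runs also share a pattern of scores. Positions 25898632, 25898644, 25898655 and 25898664 had exactly the same 3 deposited scores as the 4 positions 2760 bases farther on, with combined scores of 0.425, 0.404, 0.602 and 0.441. In the RefSeq annotation of another yak assembly (Bosgru_T2T1.0), the FTO span contains 3 other genes, 2 long noncoding RNAs and 1 transcribed pseudogene, and the ALKBH5 and ALKBH3 spans contain 0. Whether one of them matches this stretch was not tested.

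**Figure D4:**
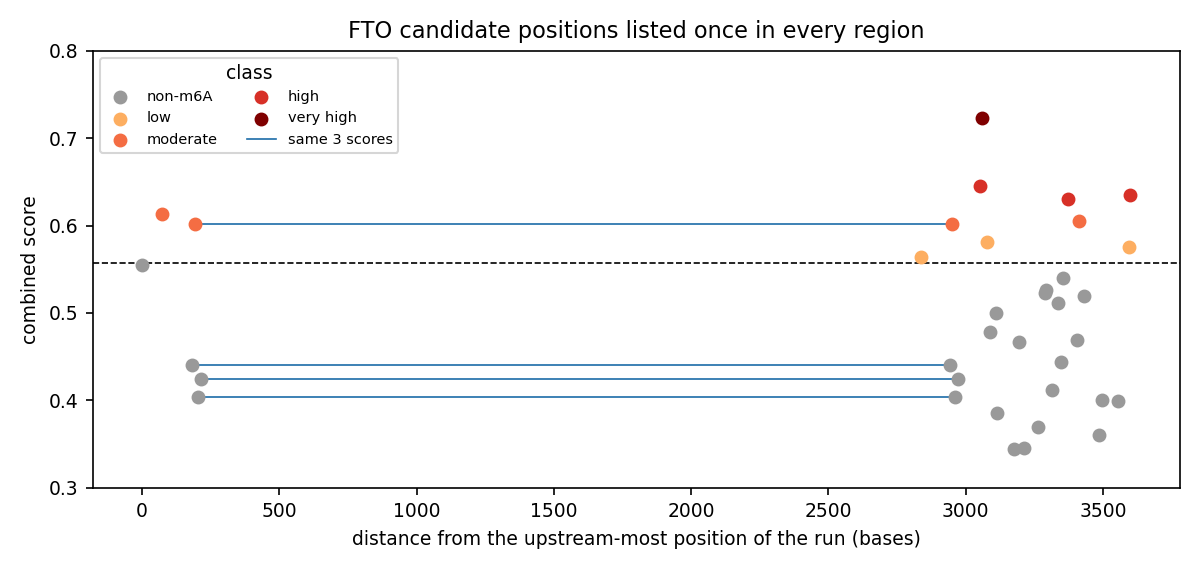
Combined score (vertical axis) of the 36 FTO candidates listed once in every region, against distance in bases along the direction of transcription from the first of them; colour gives the class, the dashed line the lowest class, and blue lines join positions with identical scores. The 4 joined pairs are all 2760 bases apart, and the very high confidence position scores 0.723.

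For other genes of the m6A pathway, the counts of called peaks rest on few peaks, beside 2.98%, 2.27% and 1.96% of all peaks, and are no result about these lists. Among 6 further AlkB-family dioxygenases, 0 of 7, 0 of 4 and 0 of 6 peaks were called for corpus against caput, cauda against caput and cauda against corpus, and at an unadjusted p under 0.05 the counts were 0, 0 and 1, against 16.4%, 17.2% and 16.4% of all peaks. Their median log2 folds were -0.16, -0.14 and 0.14, beside -0.02, 0.043 and 0.046 over all peaks in the authors' deposited tables. Writers had 0 of 19, 1 of 17 and 0 of 17 called, the one being a peak of Virma, a scaffold of the writer complex (log2 fold 1.02, adjusted p = 0.043, cauda over caput, in the authors' deposited table). Readers had 0 of 13, 1 of 15 and 1 of 15 called, in Fxr1 (log2 fold 0.76, cauda over caput) and FXR2 (-0.50, cauda over corpus) in the authors' deposited tables. At an unadjusted p under 0.05, writers had 1, 4 and 1 peaks and readers 1, 4 and 1 in these comparisons. METTL3, the catalytic writer, matched no symbol of the table, so the writer counts lack it.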

How the data were processed

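The peaks and candidate lists were used as deposited, 1 list per region and 1 table per pair of regions. The submitters' processing notes name deepTools, HISAT2 and Trimmomatic. Which peak caller, differential test, site predictor and genome build were used is not stated there or in the files. Per the file headers, the lists hold the authors' prediction score and class, and the tables hold the authors' p-value, raw and adjusted, the ratio (fold) between regions and its log2 value. Folds have the first-named region on top: unspliced peaks listed in the first alone had median log2 folds of 0.32, 0.39 and 0.40, and those listed in the second alone -0.38, -0.27 and -0.30. The 9 expression columns carry codes that match no label and were used in no step, so the planned expression test was not run. Symbols came from that table.

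A listed peak belonged to a gene if it overlapped a tabulated peak of that gene by at least 1 base, and a position listed repeatedly entered once, at its highest score. The files give no exon blocks, so the planned restriction to them was replaced by the whole span. Starts were counted from 0 in the files (0 candidates sit on a start base) and are printed counting from 1. Peaks were called at the authors' adjusted p under 0.05. Named were all peaks of the 3 genes, and other pathway genes where a peak passed. No test of differences was run here. Members and lists were chosen with earlier results of these data known. Tables were handled in pandas 2.3.3, Wilson intervals came from statsmodels 0.14.6, and helper functions were tested on simulated data.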

Additional observations from a re-analysis of the deposited data

How the results depend on the processing

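No eraser peak was called at an adjusted p under 0.05, nor at 0.01. Under an adjusted p of 0.10, 2 of the 3 cauda over corpus peaks (ALKBH3 and the downstream ALKBH5 peak) were called, against 3.46% of all peaks. At an unadjusted p under 0.05 there were 1 of 4 in cauda over caput and 2 of 3 in cauda over corpus. The shares of all peaks there were 17.2% and 16.4%. Because these 2 peaks had candidates listed in the cauda alone, their counts are not a result about the erasers. Requiring 50% overlap left the 43, 46 and 57 candidates of caput, corpus and cauda in place. Counting every repeated line gave 57, 105 and 117. Leaving out runs wider than the longest peak of the gene, an alternative chosen after seeing the data, left 13, 16 and 27 candidates, and 4, 3 and 5 of them classed, against 13, 12 and 14. The whole loss was in FTO. Over all regions together, leaving out the 36 FTO positions of the stretch, also chosen after seeing the data, left 4 classed positions of 15. Classes of moderate confidence or above held 9, 8 and 9 positions in caput, corpus and cauda, and of high confidence or above 5, 4 and 4. Those of high confidence or above were all in FTO, and all but 25972869 in the caput lie in the stretch of 36. Shares of all listed positions at these cuts were not computed, so these counts have no background. The exon-block alternative and those for expression could not be run. No paired analysis was possible because the tables carry no values per library. The depth behind the peaks is unknown.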
